A study of Homo sapiens with 60 samples.

Results

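Fibrinogen is made of an alpha, a beta and a gamma chain, encoded by FGA, FGB and FGG. The 3 chain genes were followed here in A549 cells together with LCN2 (lipocalin 2), SERPINA3 (alpha-1-antichymotrypsin) and CP (ceruloplasmin), other genes of the acute phase response. These 6 genes were taken from 60675 in the table, and all 6 passed the filter on low counts. They were chosen by name, with the results at the 500 dose known, because FGA, FGB and FGG were lower with Menthae Herba at 500 and LCN2 was higher with several decoctions at 500. Values at 500 are therefore given as a description: they are counted against the threshold of the fit, with no p-value, and nothing is supported with them. Comparisons of 100 with 20 and of 20 with vehicle, which use none of the 500 libraries, were tested.

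A549 is an established human cell line from a lung adenocarcinoma. Every group was cultured for 24 h, either with vehicle or with a hot-water extract at 500, 100 or 20 µg/mL as the labels print it. Menthae Herba and Saposhnikoviae Radix are single herbs, and Guibi-tang, Saengmaek-san, Okbyeongpung-san and Soyo-san are decoctions of several plants. The vehicle was DMSO, at 0.1% in the sample labels and at 2% in the series text. The series text also states that an extract whose IC20, the concentration that inhibits by 20%, lay under 500 µg/mL was given at its IC20 and at dilutions of it, and the labels do not say which extracts those were. Each of these 19 groups had 3 libraries. A seventh extract, Soshiho-tang, had 1 library per dose. Whether the replicate libraries stem from separate cultures is not in the labels; the p-values speak only for the spread among these libraries, which may be technical. In RNA from whole cultures, fewer cells that express a gene and less of its RNA per cell cannot be told apart.

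Fibrinogen is a soluble plasma protein made mainly by hepatocytes. Pairs of the 3 chains are joined into a hexamer in the endoplasmic reticulum, and thrombin turns the secreted protein into the fibrin of a clot. Lung epithelial cells can also make it. During inflammation interleukin 6, acting through gp130, JAK kinases and STAT3, raises the chain genes together, and glucocorticoids add to this. LCN2 binds bacterial siderophores and so withholds iron, and is a textbook target of NF-kB with its partner IkB-zeta. SERPINA3 inhibits chymotrypsin-like proteases of neutrophils and mast cells. CP is a copper-carrying ferroxidase that helps to load iron onto transferrin.

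The chain genes lie side by side on chromosome 4 (GENCODE 29, GRCh38). FGB is at chr4:154562956-154571086 on the plus strand, FGA at chr4:154583126-154590766 on the minus strand and FGG at chr4:154604134-154612967 on the minus strand, so that the cluster spans 50012 bases. LCN2 is at chr9:128149071-128153455, SERPINA3 at chr14:94612377-94624055 and CP at chr3:149162410-149222055. Sequence upstream of the start sites came from RefSeq on GRCh38.p14, as windows of 300 bases from 250 before to 50 after a start site. The RefSeq start sites of FGA, FGB, FGG and LCN2 lie inside the GENCODE bounds of the genes. The printed stretches of FGG and LCN2 lie inside these bounds too, and those of FGA and FGB lie outside. Windows were found for 5 of the 6 genes, and the first of 2 windows was used for FGB. CP had no entry. Stretches of 30 bases are shown for the interleukin 6 and NF-kB class of motif, since these are the pathways for which the genes are known. Capitals mark the motif, and each stretch is written 5′ to 3′ on the gene's own strand.
FGA STAT motif, chr4:154590954-154590983, minus strand: agccaccctgTTCCTGGAAtgtgagatctc
FGA interleukin 6 response core, chr4:154590852-154590881, minus strand: gagcaagaatttCTGGGAtaccaacagcat
FGB interleukin 6 response core, chr4:154562856-154562885, plus strand: aaataagctttgCTGGGAagatgttgctta
FGG interleukin 6 response core, chr4:154612800-154612829, minus strand: tgtgtgcaaaatCTGGGAacctgacagtat
FGG the same core read on the opposite strand, chr4:154612681-154612710, minus strand: cagtcctggctaTCCCAGgagcttacataa
LCN2 NF-kB motif, chr9:128149268-128149297, plus strand: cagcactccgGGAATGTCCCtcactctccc

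All 3 chain genes held the interleukin 6 response core, CTGGGA, with its first base at −127 for FGA, −112 for FGB and −161 and −42 for FGG from the start site. The same core stood in 33.3% of all 35116 windows. FGA alone of the 5 genes held a STAT motif, TTCNNNGAA, at −231, which 7.66% of windows hold. LCN2 alone of the 5 held the NF-kB motif, at −175, which 11.3% of windows hold. The C/EBP motif TTNNGNAA was found 3 times in FGB and 1 time each in FGA, FGG, LCN2 and SERPINA3, beside 36.8% of all windows. SERPINA3 held none of the STAT, interleukin 6 and NF-kB motifs. Both strands were searched, and no printed motif overlapped another of the search. A match is a description of letters and not of a bound site.

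Library totals ran from 18330592 to 35308791 counts. Epithelial keratins were high in every library (KRT8 2657.4 to 3639.4 and KRT18 2229.2 to 2884.1 CPM, counts scaled to the library total). Of 12 hepatocyte markers 1 had a mean of 1 CPM or more (CPS1, 43.3 to 70.4 CPM), while ALB, APOA2 and APOC3 reached at most 0.135, 0.0546 and 0.0932 CPM and F9 was at 0. Of the leukocyte markers CD68 (6.63 to 19 CPM) and CD14 (1.55 to 3.34) were expressed, while the defining PTPRC reached at most 0.0516 CPM and CD3E was at 0. Of the fibroblast markers COL1A1 (25.9 to 40.7), COL3A1 (3.37 to 7.04) and THY1 (5.34 to 8.97) were expressed, and DCN and COL1A2 reached at most 0.0978 and 0.104 CPM. In the order of the library names the mitochondrial share of counts stepped up after the first 31 libraries, from 10.7 to 13.9% before the step to 12.9 to 22.2% after it. Vehicle and both herbs lie wholly before the step. Soyo-san, Okbyeongpung-san and Soshiho-tang lie wholly after it, so for these extracts a difference from vehicle and the library order cannot be told apart. Saengmaek-san and Guibi-tang have libraries on both sides in every group. Saengmaek-san has 2 before the step and 1 after it at each dose. Guibi-tang has 2 before and 1 after at 500, but 1 before and 2 after at 100 and at 20. Guibi-tang at 500 against 20 is therefore not balanced over the step.

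FGB, FGA and FGG stood among the well expressed genes of A549, at ranks 698, 881 and 1333 of the 60675 by mean CPM. Over all 60 libraries FGA ran from 140.7 to 210.3 CPM with a median of 182.3, FGB from 164.3 to 244.0 with a median of 214.6, and FGG from 104.8 to 144.7 with a median of 131.2. The lowest library still held 2708 counts of FGA, 3498 of FGB and 2211 of FGG. CP lay far lower at 9.99 to 16.9 CPM (198 to 467 counts). SERPINA3, at 0.691 to 4.02 CPM, and LCN2, at 0.430 to 5.72 CPM, were low genes with 16 to 90 and 13 to 112 counts per library. The 3 well counted chains were also the least variable: the median coefficient of variation within a group was 4.21% for FGA, 3.24% for FGB and 2.82% for FGG, against 7.84% for CP, 16.9% for LCN2 and 27.9% for SERPINA3. Per kilobase of the longest coding transcript the vehicle level was 110 CPM for FGB, 72.5 for FGG and 51 for FGA, then 2.78 for CP, 0.906 for LCN2 and 0.466 for SERPINA3. SERPINA3 had fractional estimated counts in 59 libraries and CP in all 60, which the counting step gives where reads fit more than 1 gene, so part of their level is an allocation.

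A gene is counted here as past the threshold at an adjusted p under 0.05 in edgeR's quasi-likelihood test with Benjamini-Hochberg adjustment over all 17256 genes tested. At 500 against vehicle, 7 of the 36 values (6 genes in 6 extracts) were past it. These were FGA, FGB and FGG, all lower, for Menthae Herba, where 6.77% of all genes were past it, and LCN2, higher, for Guibi-tang (4.42% of all genes), Soyo-san (6.03%) and Okbyeongpung-san (3.39%). SERPINA3, higher for Soyo-san, was the seventh. No member was past it for Saposhnikoviae Radix (1.56% of all genes) or Saengmaek-san (0.614%). At 500 against the same extract at 20, the count was 5 of 36: the 3 chains for Menthae Herba (2.43% of all genes) and LCN2 for Guibi-tang (0.997%) and Soyo-san (0.614%). It was 0 for Saposhnikoviae Radix (0.0811%), Okbyeongpung-san (0.0985%) and Saengmaek-san (0%, with 469 genes at an unadjusted p under 0.05 and 1 gene called by DESeq2). These counts follow from how the genes were chosen and nothing is read from them. Both sets of comparisons share the libraries at 500.

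With Menthae Herba at 500 all chains were lower than in vehicle and lower than with the same herb at 20. FGB, the beta chain, was at 224.6, 213.0 and 214.3 CPM in the vehicle libraries. With Menthae Herba it was at 203.4, 220.4 and 217.2 CPM at 20, at 187.4, 207.9 and 199.1 at 100, and at 171.8, 164.3 and 171.2 at 500. The libraries at 500 lay below every vehicle library and every other Menthae Herba library, while those at 20 overlapped vehicle. Of all genes tested, 33.8% did not overlap between 500 and vehicle and 21.9% between 500 and 20, in either direction. The log2 fold change of FGB at 500 was −0.40 ± 0.0671 (SE) against vehicle, or 0.756 of the vehicle level, and −0.36 ± 0.0673 against 20. The group mean, 169.1 ± 4.14 CPM (SD, n = 3), was the lowest of all groups. Next came Menthae Herba at 100 (198.1 ± 10.3) and Guibi-tang at 500 (201.1 ± 5.14), whose libraries overlapped each other but not those of Menthae Herba at 500.

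FGA, the alpha chain that carries the fibrinopeptide cut first by thrombin, was at 193.9, 182.3 and 186.6 CPM in vehicle. It was at 194.2, 195.6 and 199.0 CPM with Menthae Herba at 20, at 185.6, 192.4 and 179.8 at 100, and at 163.4, 156.7 and 160.5 at 500. The libraries at 500 again lay below all of these. The log2 fold change was −0.27 ± 0.0455 against vehicle (0.830 of its level) and −0.31 ± 0.0457 against 20. Unlike for FGB, other groups reached this level: Soyo-san at 500 (168.2 ± 10.9 CPM) and Saengmaek-san at 100 (172.1 ± 28.2) overlapped it, and the lowest library of all for FGA was Saengmaek-san at 100, replicate 3, at 140.7 CPM. That library and Soyo-san at 500, replicate 1 (156.1 CPM), were the only ones to reach it. They lie after the step in library order, and Menthae Herba at 500 lies before it. The part of the step in this overlap was not tested.

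FGG, the gamma chain, was at 132.7, 123.8 and 126.2 CPM in vehicle and at 113.9, 104.8 and 108.2 with Menthae Herba at 500. At 100 it was at 120.8, 137.2 and 128.5 CPM and at 20 at 135.6, 132.0 and 135.7. No library at 500 reached the lowest vehicle library or the lowest library at 100. The log2 fold change was −0.27 ± 0.0518 against vehicle (0.830) and −0.32 ± 0.0520 against 20 (0.801). The next lowest group was Soyo-san at 500 (124.3 ± 1.25 CPM), which did not overlap Menthae Herba at 500 (109.0 ± 4.57) and did overlap vehicle (127.6 ± 4.59). Summed, the chains held 532.4 ± 16.7 CPM in vehicle and 438.3 ± 11.6 with Menthae Herba at 500, with 512.9 ± 22.3 at 100 and 544.3 ± 9.87 at 20.

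All of these libraries lie before the step in library order, so the Menthae Herba values do not cross it. Over 13 other fits (other scaling, no filter, a replicate block, a library order term, DESeq2, only the compared groups, only the first 31 libraries, and 1 library left out at a time) the log2 fold change against vehicle stayed between −0.42 and −0.38 for FGB, −0.29 and −0.25 for FGA and −0.30 and −0.24 for FGG. A marker sum of the hepatocyte, the main source of fibrinogen in the body, was also lower, at 43.9 to 49.7 CPM with Menthae Herba at 500 against 60 to 62.2 in vehicle. Nearly all of that sum is CPS1, while the defining hepatocyte genes were at or near 0 in every library. The lung epithelial sum was lower too (5233.1 to 5492.4 against 6212.9 to 6452.0 CPM in vehicle), and the fibroblast sum was higher (47.3 to 55.2 against 38.6 to 41.7). The epithelial sum was also below vehicle with Guibi-tang, Soyo-san and Okbyeongpung-san at 500, at 5023.1 to 5521.6 CPM over these 3 groups. The hepatocyte sum was below vehicle with Soyo-san (45.2 to 51.4) and Okbyeongpung-san (52.5 to 56.4) at 500 too, and overlapped it with Guibi-tang (51.3 to 63.7). The fibroblast sum was above vehicle with Soyo-san (42.2 to 44.7) and overlapped it with Guibi-tang (38.2 to 45.7) and Okbyeongpung-san (40.5 to 45.1). The part of these markers in the result was not tested.

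**Figure D1:**
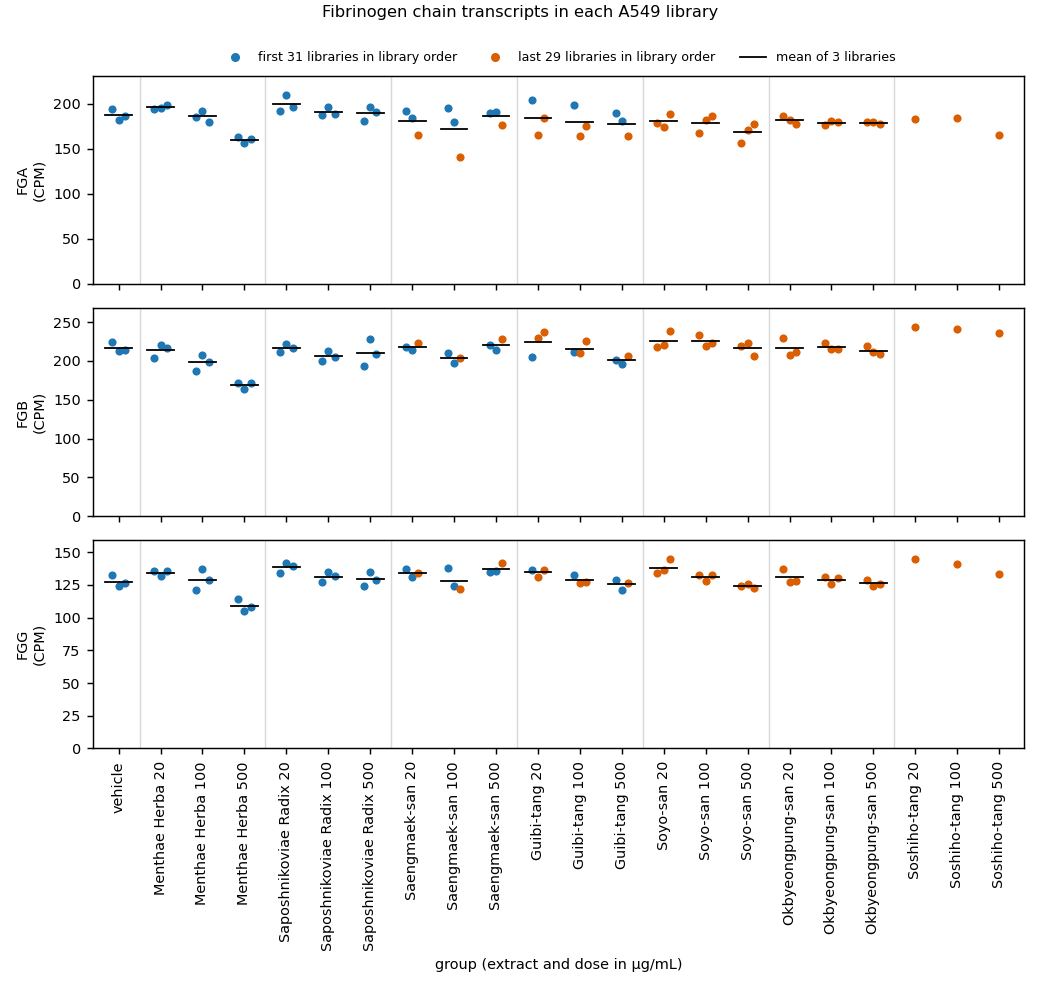
Levels of FGA, FGB and FGG in CPM (vertical axes) for each library (points) by group (horizontal axis), with the mean of 3 libraries as a black line and point colour giving libraries before or after the step in library order. Menthae Herba at 500 is the lowest group in each panel, at 160.2, 169.1 and 109.0 CPM, while the group means of the other extracts with 3 libraries lie between 168.2 and 199.8 for FGA, 201.1 and 226.1 for FGB and 124.3 and 138.4 for FGG.

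In the other extracts no chain passed the threshold at 500 as fitted here. With the library order as a term FGB was lower at 500 against vehicle and past the threshold with Guibi-tang (−0.19 ± 0.0460, from −0.13), Soyo-san (−0.17 ± 0.0527, from 0.03) and Okbyeongpung-san (−0.21 ± 0.0528, from −0.01). FGA with Guibi-tang (−0.16 ± 0.0388) and FGG with Soyo-san (−0.16) then also passed at 500 against 20. The largest change among them at 500 against 20 was FGB with Guibi-tang, at 201.9, 195.7 and 205.9 CPM at 500 and 205.3, 229.3 and 237.9 at 20, a log2 fold change of −0.23 ± 0.0670 between groups that overlapped by 1 library. FGA (−0.12 ± 0.0456) and FGG (−0.17 ± 0.0518) had the same sign there. With Soyo-san FGG was −0.16 ± 0.0517 at 500 against 20, and against vehicle its value was −0.00. With Saengmaek-san FGG stood above vehicle at 500, at 134.7, 136.0 and 141.9 CPM, all over the highest vehicle library, with a log2 fold change of 0.11 ± 0.0513.

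The change from 20 to 500 was set against that of each other extract within the same fit. For FGA the Menthae Herba change was lower than the others by −0.19 ± 0.0645 log2 (Guibi-tang, 95% interval −0.31 to −0.06) to −0.34 (Saengmaek-san, −0.47 to −0.22). For FGG the differences ran from −0.15 ± 0.0734 (Guibi-tang, −0.29 to −0.00) to −0.34 (Saengmaek-san, −0.49 to −0.20). For FGB the difference from Guibi-tang was −0.13 ± 0.0949 with an interval of −0.31 to 0.06 that includes 0, and the difference from Saposhnikoviae Radix was −0.29 ± 0.0948 (−0.48 to −0.11). The interval for FGB therefore leaves the herb and Guibi-tang undistinguished over this dose range in this fit, which has no term for the step. The Guibi-tang change is not balanced over the step, which was 0.20 ± 0.0278 log2 for FGB as a term in the fit. The Menthae Herba change does not cross the step. The part of the step in this difference was not tested. Menthae Herba was picked out for these changes, so the differences carry no test.

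The chains did not keep 1 ratio in all libraries, and the break followed the library order. The ratio of FGA to FGB in CPM was 0.856 to 0.996 (median 0.916) in the first 31 libraries and 0.689 to 0.875 (median 0.791) in the last 29. FGG to FGB moved less, from 0.581 to 0.667 (median 0.634) to 0.562 to 0.622 (median 0.593). In the 6 Saengmaek-san and Guibi-tang groups with libraries on both sides, FGA in CPM was lower after the step in 6 of 6, by −0.11 to −0.42 log2. FGB was equal or higher, by 0.00 to 0.19, and FGG ran from −0.11 to 0.07. CPM is scaled to a total that includes the mitochondrial counts, while the fit uses TMM scaling, so these values and those of the fit are not on 1 scale. As a term in the fit, last minus first, the step was −0.09 ± 0.0234 log2 for FGA, 0.20 ± 0.0278 for FGB and 0.11 ± 0.0262 for FGG. The step was 0.58 ± 0.130 for LCN2, 0.12 ± 0.219 for SERPINA3 and −0.01 ± 0.0622 for CP.

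Within the first 31 libraries vehicle and Menthae Herba at 500 differed in the same ratios. FGA to FGB was 0.856 to 0.871 in vehicle and 0.937 to 0.954 with Menthae Herba at 500, and FGG to FGB was 0.581 to 0.591 against 0.632 to 0.663. FGA to FGG overlapped, at 1.46 to 1.48 and 1.43 to 1.5. The libraries did not separate by dose in either ratio. With Menthae Herba at 20 and 100 FGA to FGB was 0.888 to 0.955 and 0.903 to 0.990. FGG to FGB was 0.599 to 0.667 and 0.645 to 0.660, and all of these overlap the values at 500. The group means of FGA to FGB rose from 0.919 at 20 to 0.940 at 100 and 0.947 at 500. Those of FGG to FGB, 0.630, 0.650 and 0.644, did not order by dose. With Saposhnikoviae Radix at 20 and 100 both ratios also lay above vehicle (FGA to FGB 0.906 to 0.946 and 0.915 to 0.941). The vehicle libraries held the low end of both ratios among the first 31.

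**Figure D2:**
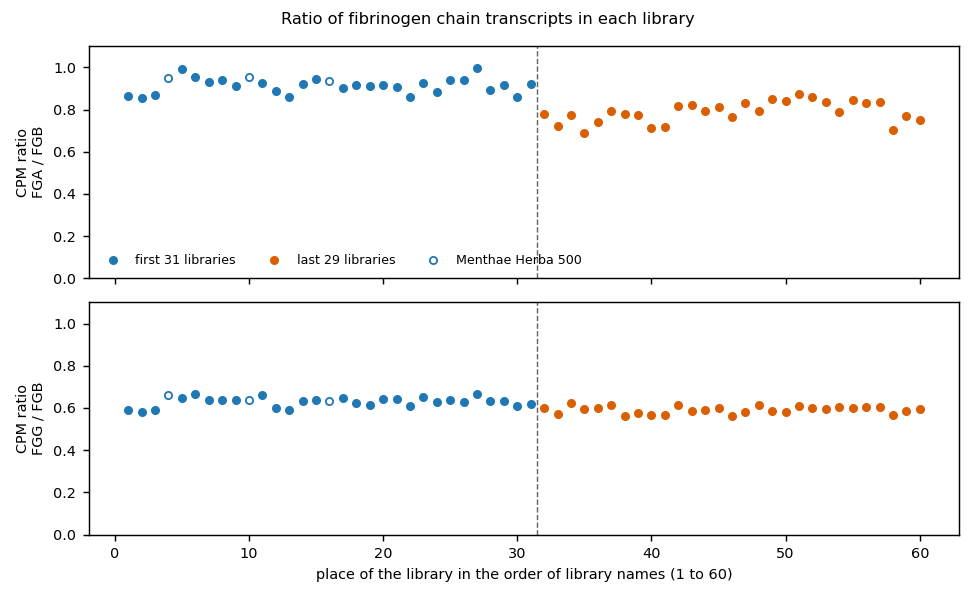
Ratio of FGA to FGB and of FGG to FGB in CPM (vertical axes) for each of the 60 libraries in the order of the library names (horizontal axis), with a dashed line after library 31 and open symbols for Menthae Herba at 500. FGA to FGB lies at 0.856 to 0.996 before the line and 0.689 to 0.875 after it.

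LCN2 was the member with the widest range, with a ratio of 6.78 between its highest and lowest group mean among the 19 groups. It was at 0.723, 0.821 and 0.761 CPM in vehicle. With Guibi-tang it was at 0.838, 0.826 and 0.979 CPM at 20, at 1.19, 1.42 and 2.01 at 100, and at 3.87, 3.62 and 5.72 at 500. All libraries at 500 lay above all at 100, and all at 100 above all at 20. Between 100 and 20 of Guibi-tang, 5.62% of all genes tested did not overlap, in either direction. The log2 fold change of LCN2 at 500 was 2.49 ± 0.230 against vehicle, a 5.60-fold higher level, and 2.25 ± 0.234 against 20, 4.74-fold. Replicate 3, after the library step, was the highest of the group. In a fit of the first 31 libraries alone, which holds the other 2 Guibi-tang libraries at 500, the value against vehicle was 2.22 ± 0.219.

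With Soyo-san LCN2 was at 1.18, 1.01 and 1.34 CPM at 20, at 1.58, 1.66 and 1.19 at 100 and at 3.55, 2.71 and 3.00 at 500. The groups at 20 and 100 overlapped, and the group at 500 lay above both. The log2 fold change was 2.03 ± 0.234 against vehicle (4.09-fold) and 1.38 ± 0.230 against 20 (2.60-fold). All 9 Soyo-san libraries lie after the step, so the value against 20 does not cross it, and it was 1.38 ± 0.191 in a fit of the last 29 libraries alone. With the library order as a term the value against vehicle was 1.45 ± 0.236.

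With Okbyeongpung-san LCN2 was at 1.35, 0.905 and 1.33 CPM at 20, at 1.42, 1.66 and 1.39 at 100 and at 2.38, 1.79 and 2.24 at 500. Its libraries at 500 lay above those at 20 and 100. Against vehicle the log2 fold change was 1.48 ± 0.244 (2.78-fold), and it was 0.90 ± 0.243 with the library order as a term. Against 20 it was 0.80 ± 0.242 (1.74-fold), not past the threshold. Guibi-tang, Soyo-san and Okbyeongpung-san at 500 held the 3 highest means of the groups with 3 libraries, 4.40 ± 1.15, 3.09 ± 0.427 and 2.13 ± 0.309 CPM. None of the 3 overlapped its neighbour, while Okbyeongpung-san at 500 overlapped the next of these groups, Guibi-tang at 100 (1.54 ± 0.422). The change from 20 to 500 was higher for Guibi-tang than for Soyo-san by 0.86 ± 0.335 log2 (95% interval 0.21 to 1.52) and than for Okbyeongpung-san by 1.44 ± 0.343 (0.77 to 2.12). LCN2 was chosen for its level at 500 and Guibi-tang as the highest there, so these differences carry no test. The Guibi-tang change is also not balanced over the step, which was 0.58 ± 0.130 log2 for LCN2 as a term in the fit.

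In the other 3 extracts the group means of LCN2 lay at 0.649 CPM or more and at 1.1 CPM or less, beside 0.768 ± 0.0496 in vehicle. With Menthae Herba at 500 it was at 1.03, 0.532 and 0.783 CPM, around vehicle, with a log2 fold change of −0.03 ± 0.288. With Saposhnikoviae Radix at 500 it was at 1.17, 0.927 and 1.14 CPM, above vehicle in each library (0.45 ± 0.266). With Saengmaek-san it was lower at 500 (0.608, 0.430 and 0.911 CPM) than at 20 (0.851, 1.02 and 1.42), and 1 library overlapped. That change, −0.80 ± 0.289 log2, had the opposite sign to the decoctions above and did not pass the threshold. Neutrophils are a rich source of LCN2. The summed level of a neutrophil marker list was 0.153 to 0.280 CPM with Guibi-tang at 500 and 0.113 to 0.241 in vehicle, with the collagenase MMP8 at 0 in every library. The summed leukocyte list was higher in the LCN2-high groups, at 15.1 to 20.9 CPM with Guibi-tang, 16.7 to 18.4 with Soyo-san and 14.5 to 16.4 with Okbyeongpung-san at 500 against 13.2 to 13.7 in vehicle, with no overlap. That sum is nearly all CD68 and CD14, with PTPRC and CD3E at or near 0, and its part in the result was not tested.

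SERPINA3 varied most between libraries of a group. In vehicle it was at 0.861, 1.27 and 1.59 CPM, and with Soyo-san at 500 at 2.30, 3.48 and 2.33, with no overlap. Of all genes tested, 30.6% did not overlap in this comparison. The log2 fold change of SERPINA3 was 1.15 ± 0.346 (2.22-fold). It did not stay past the threshold without vehicle replicate 1 (0.95), vehicle replicate 2 (1.17), Soyo-san 500 replicate 1 (1.23) or Soyo-san 500 replicate 2 (0.94), nor with the library order as a term (1.03). The highest group mean was Guibi-tang at 100, at 2.91, 4.02 and 2.67 CPM. Guibi-tang at 500 was at 0.932, 3.08 and 1.84 CPM, from inside the vehicle range to inside that of Guibi-tang at 100, so SERPINA3 did not order by dose there.

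CP was the steadiest of the lower genes, with a ratio of 1.36 between its highest and lowest group mean. It was at 14.4, 11.3 and 13.4 CPM in vehicle and at 12.4, 11.3 and 9.99 with Menthae Herba at 500, overlapping groups with a log2 fold change of −0.25 ± 0.102. Menthae Herba at 500 was also the lowest group for CP, as for the chains, but did not stand apart from the next groups, Okbyeongpung-san at 100 (11.4 ± 1.06 CPM) and Menthae Herba at 100 (11.8 ± 0.408). At the upper end, Soyo-san at 500 (15.3, 13.3 and 16.9 CPM) lay above Soyo-san at 20 (12.9, 11.9 and 12), with 0.30 ± 0.101 log2, not past the threshold. Saengmaek-san at 500 (15.0 ± 0.681 CPM) overlapped it.

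**Figure D3:**
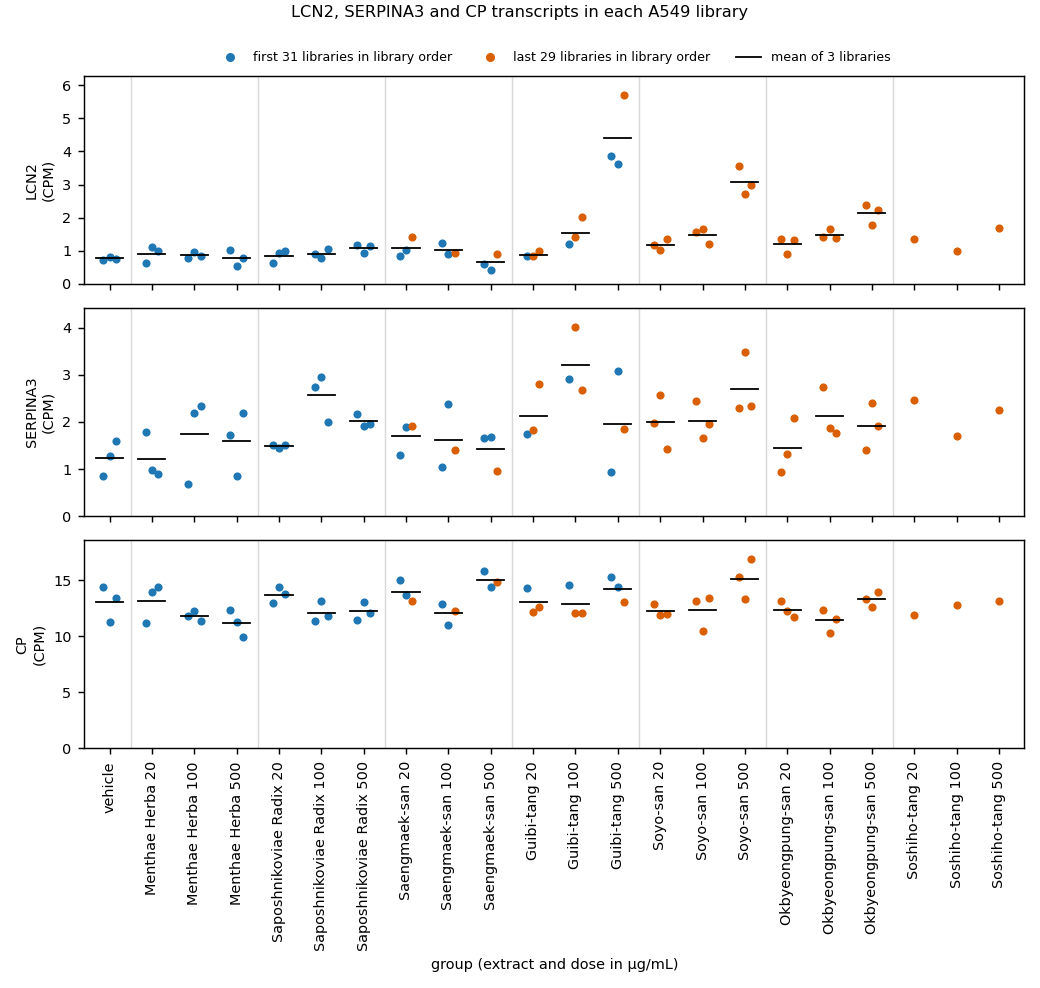
Levels of LCN2, SERPINA3 and CP in CPM (vertical axes) for each library (points) by group (horizontal axis), with the mean of 3 libraries as a black line and point colour giving the side of the step in library order. LCN2 is highest with Guibi-tang, Soyo-san and Okbyeongpung-san at 500 (means 4.40, 3.09 and 2.13 CPM), SERPINA3 spreads widely within groups, and CP stays between 9.99 and 16.9 CPM.

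At 100 against 20, no member passed the threshold in any extract: 0 of 36 by edgeR and 0 by DESeq2, with 2 at an unadjusted p under 0.05. Few genes passed at all at this step. The share of all genes was 0.0290% for Menthae Herba, 0.00580% for Guibi-tang, 0.00580% for Soyo-san and 0% for Saposhnikoviae Radix, Saengmaek-san and Okbyeongpung-san, where edgeR and DESeq2 both called 0 genes and 403, 434 and 453 had an unadjusted p under 0.05. LCN2 with Guibi-tang was the nearest, with a log2 fold change of 0.80 ± 0.259 (95% interval 0.29 to 1.31), 3 of 3 libraries higher and an adjusted p of 0.819 by edgeR. The other unadjusted one was SERPINA3 with Saposhnikoviae Radix, at 2.56 ± 0.499 CPM against 1.49 ± 0.0449 (0.79 ± 0.348, adjusted p 1.00 by edgeR).

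LCN2 was 0.32 ± 0.252 with Soyo-san and 0.29 ± 0.256 with Okbyeongpung-san (edgeR adjusted p 1.00 for both). For Menthae Herba the chains at 100 against 20 had log2 fold changes of −0.12 ± 0.0669 for FGB, −0.09 ± 0.0454 for FGA and −0.07 for FGG (adjusted p 1.00 for each, edgeR). All 18 chain values of this comparison were negative, from −0.12 to −0.01. These values share the libraries at 20 with the 500 comparison, and the 3 chains of an extract share all libraries.

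At 20 against vehicle edgeR called 0 of 36 and DESeq2 1, FGG with Soyo-san, and 5 had an unadjusted p under 0.05. The share of all genes past the threshold was 0.382% for Menthae Herba, 0.991% for Saposhnikoviae Radix, 0.452% for Saengmaek-san, 1.35% for Guibi-tang, 1.99% for Soyo-san and 1.09% for Okbyeongpung-san. FGG with Soyo-san was 0.16 ± 0.0514 log2 above vehicle, at 134.2, 136.2 and 144.5 CPM against 132.7, 123.8 and 126.2, with an adjusted p of 0.0867 by edgeR. FGG with Guibi-tang was 0.13 ± 0.0513 above vehicle (adjusted p 0.202, edgeR). LCN2 was 0.65 ± 0.265 above vehicle with Soyo-san and 0.67 ± 0.268 with Okbyeongpung-san (edgeR adjusted p 0.178 and 0.230). SERPINA3 with Guibi-tang was 0.82 ± 0.356 (edgeR adjusted p 0.260). The Soyo-san and Okbyeongpung-san libraries all lie after the library step and vehicle before it. CP ran from −0.04 to 0.13 over the 6 extracts.

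**Figure D4:**
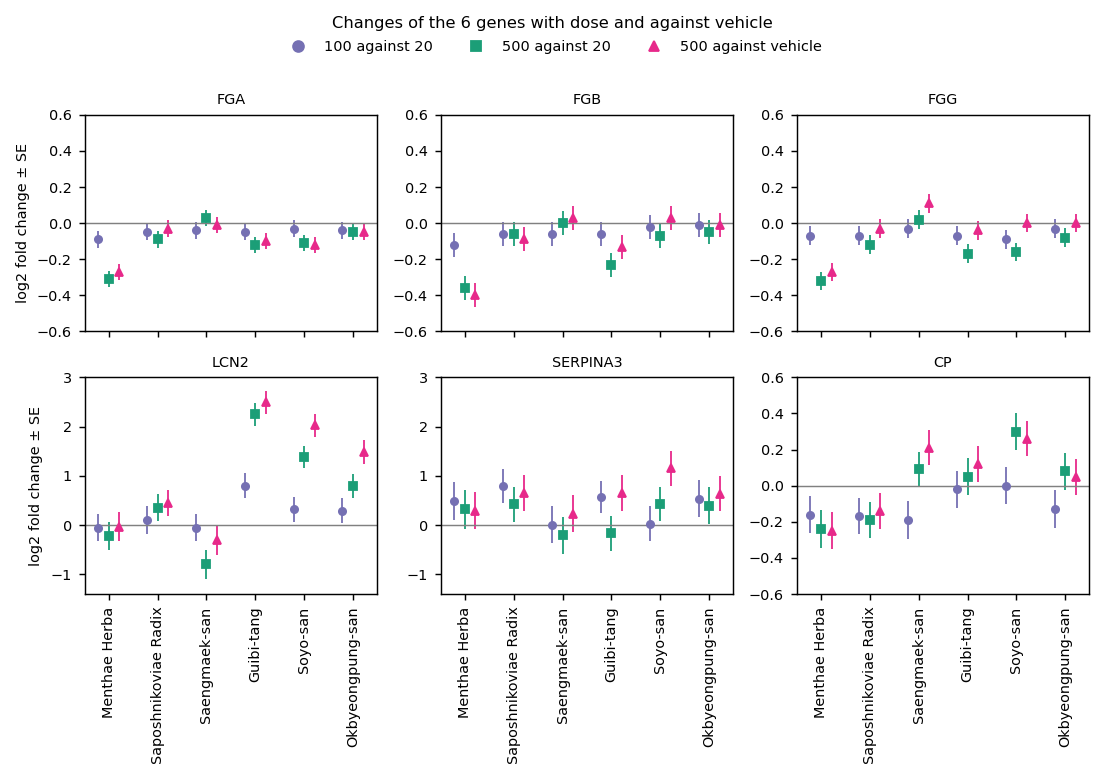
Log2 fold change of the 6 genes (vertical axis) for 6 extracts (horizontal axis) at 100 against 20, 500 against 20 and 500 against vehicle, as points with bars of 1 SE. The chains lie below 0 at 500 with Menthae Herba (−0.40 to −0.27 against vehicle), and LCN2 lies highest with Guibi-tang, Soyo-san and Okbyeongpung-san (2.49, 2.03 and 1.48).

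Most other acute phase genes were silent in these cells. Of 20 further positive acute phase genes 9 could be tested, and the group means of SAA1, SAA2, HP and CRP, classical liver products, never exceeded 0.0912, 0.0929, 0.120 and 0.0136 CPM. IL6 itself reached at most 0.0682 CPM. Among those tested, CFB and C3, complement proteins of the alternative pathway, were past the threshold at 500 against 20 with Guibi-tang, Soyo-san and Okbyeongpung-san, 2 of 9 in each, and 0 of 9 in the other 3 extracts. The share of all genes past it was 0.997% for Guibi-tang, 0.614% for Soyo-san and 0.0985% for Okbyeongpung-san, and 2.43%, 0.0811% and 0% for Menthae Herba, Saposhnikoviae Radix and Saengmaek-san. C3 was at 74.1 ± 1.99 CPM with Guibi-tang at 500 against 39.7 ± 0.499 at 20 (0.83 ± 0.0693 log2), at 70.0 ± 0.302 against 40.3 ± 1.82 with Soyo-san (0.79) and at 63.1 ± 1.40 against 38.5 ± 2.08 with Okbyeongpung-san (0.69 ± 0.0703). CFB was at 2.83 ± 0.0826 against 1.09 ± 0.200 CPM with Guibi-tang, 3.08 ± 0.284 against 0.825 ± 0.234 with Soyo-san and 2.21 ± 0.241 against 0.787 ± 0.275 with Okbyeongpung-san. The same 3 extracts held the high LCN2 levels. The median of the 9 genes was −0.11, −0.06 and 0.02 log2 in these extracts, beside 0.00 for all genes. At 500 against vehicle the medians were 0.13, 0.19 and 0.13, beside −0.00, 0.01 and 0.00 for all genes. SERPINA1 (alpha-1-antitrypsin, 0.6 to 0.8 CPM) and FGL1, a fibrinogen-like liver protein, ran from −0.31 to 0.04 and −0.30 to 0.02 over the 6 extracts, none past the threshold.

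Negative acute phase genes are those that the liver makes less of in inflammation. Of 8 only 2 could be tested, and 1 was past the threshold at 500 against 20: RBP4, the retinol carrier, at 2.32 ± 0.527 CPM with Menthae Herba at 500 and 4.52 ± 0.244 at 20 (−0.97 ± 0.169 log2). It was thus lower beside the chains, which belong to the positive class.

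Of 14 testable genes of interleukin 6 family signalling, 2 were lower with Menthae Herba at 500 against 20, beside 2.43% of all genes. IL11, a cytokine that signals through gp130, was at 18.5 ± 0.0929 CPM at 500 and 27.1 ± 0.944 at 20 (−0.57 ± 0.0835 log2). OSMR, the oncostatin M receptor, was −0.18 with Menthae Herba and 0.19 with Guibi-tang, where it was the 1 gene higher. Its call was lost in 3 of 13 and in 5 of 12 other settings, among them without Menthae Herba 20 replicate 2 (−0.17) or 500 replicate 3 (−0.16), and without Guibi-tang 500 replicate 1 (0.19), 20 replicate 2 (0.19) or 20 replicate 3 (0.17). STAT3 was at −0.03 to 0.06 log2 and SOCS3, its feedback inhibitor, at −0.04 to 0.08 over the 6 extracts at 500 against 20, none past the threshold. The kinase genes JAK1 and JAK2 were not past it there either, but against vehicle at 500 JAK1 was lower with Menthae Herba (−0.15 ± 0.0326) and JAK2 higher with Soyo-san (0.33 ± 0.0656), Okbyeongpung-san (0.27 ± 0.0660) and Guibi-tang (0.26 ± 0.0665), with the last 2 calls each lost in 3 of 6 fits without 1 library (0.25 to 0.26 and 0.17 to 0.26). IL6R, the interleukin 6 receptor, was 0.35 ± 0.113 with Guibi-tang, not past the threshold. At 500 against vehicle LIF, a cytokine of this list, was higher and past the threshold with every extract but Saengmaek-san. In the other settings it was 0.23 to 0.28 log2 with Guibi-tang and 0.15 to 0.22 with Soyo-san, with no call lost. With Menthae Herba it was 0.11 to 0.16, with the call lost in 6 of 13. LIF was 0.16 to 0.21 with Saposhnikoviae Radix, with the call lost in 3 of 13. It was 0.10 to 0.17 with Okbyeongpung-san, with the call lost in 7 of 12. With Menthae Herba 1 of 14 genes was higher (LIF) and 2 lower (IL11 and JAK1), beside 6.77% of all genes. The IL11 call was lost in 5 of 13 other settings and the JAK1 call in 1 of 13. The median of the list lay between −0.01 and 0.04 in the 6 extracts at 500 against 20, beside 0.00 for all genes.

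Among 14 transcription factors that act on acute phase genes, HNF4A, a liver and gut nuclear receptor, was lower with Menthae Herba, at 78.1 ± 1.07 CPM at 500 and 93.4 ± 1.85 at 20 (−0.27 ± 0.0393). NFKBIZ, which encodes IkB-zeta, was higher with Guibi-tang (14.4 ± 1.80 against 9.90 ± 0.846 CPM, 0.47 ± 0.0883 log2) and with Soyo-san (14.3 ± 2.16 against 10.3 ± 0.711, 0.47), the extracts with the highest LCN2. Without Soyo-san 500 replicate 3 the Soyo-san value was 0.37 and no longer past the threshold. With Okbyeongpung-san NFKBIZ was 0.26, not past it. CEBPD, a C/EBP factor, ran from 0.02 to 0.25 at 500 against 20, none past it. At 500 against vehicle NFKBIZ was past it with Okbyeongpung-san too (0.54 to 0.68 over 12 other settings, no call lost). CEBPD was higher and past it there with Menthae Herba (0.28 to 0.36), Guibi-tang (0.21 to 0.44) and Soyo-san (0.20 to 0.39). Its calls were lost in 4 of 13, 5 of 13 and 2 of 12 other settings. CEBPB, another C/EBP factor, was higher there with Guibi-tang (0.42 to 0.65, no call lost). It also passed with Saposhnikoviae Radix (0.35 to 0.58) and Saengmaek-san (0.36 to 0.58), with calls lost in 2 and 3 of 13. Against vehicle 3 of the 14 were higher and 1 lower with Guibi-tang (4.42% of all genes). With Soyo-san 4 were higher and 0 lower (6.03%), and with Menthae Herba 2 and 1 (6.77%).

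Of 8 testable glucocorticoid receptor targets 3 were lower with Menthae Herba at 500 against 20, beside 2.43% of all genes: the phosphatase gene DUSP1 (−0.27 log2), the kinase gene SGK1 (−0.27) and ERRFI1, a feedback inhibitor of the EGF receptor (−0.15, and −0.16 with Soyo-san, the 1 called gene there). DUSP1 lost its call without Menthae Herba 500 replicate 1 (−0.24). The list median was −0.13 with Menthae Herba, beside 0.00 for all genes. Against vehicle 2 of 8 were lower, beside 6.77% of all genes, and the median was 0.00. Among coagulation and fibrinolysis genes PLAUR, the urokinase receptor, was at 15.9 CPM with Menthae Herba at 500 against 21.5 at 20 (−0.46 ± 0.0671), and THBD, thrombomodulin, at 30.8 against 37.6 (−0.30 ± 0.0478).

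Iron handling, to which CP and LCN2 also belong by function, had 13 testable genes. HMOX1, which frees iron from haem, was higher at 500 against 20 with Menthae Herba (219.8 against 147.9 CPM, 0.55 ± 0.0427 log2), Guibi-tang (184.4 against 137.7, 0.35) and Soyo-san (150.6 against 127.9, 0.23). SLC40A1, the iron exporter ferroportin, was 0.21 with Menthae Herba, and CYBRD1, a ferric reductase, 0.19 with Guibi-tang, and each lost its call in 6 other settings, without any of 5 of 6 libraries for SLC40A1 (0.19 to 0.22) and of 4 of 6 for CYBRD1 (0.17 to 0.19). CP was past the threshold in none of these. Among further serpins SERPINI1, neuroserpin, was lower with Menthae Herba (−0.73 ± 0.174), with the call lost without 500 replicate 1 (−0.67) or 20 replicate 2 (−0.61). At 100 against 20 no gene of the 8 lists was past the threshold.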

How the data were processed

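Directional RNA sequencing of 60 A549 libraries was analysed. Per the submitters' processing notes reads passed through FastQC 0.11.9, Trim Galore 0.6.5, STAR 2.7.3a and RSEM 1.3.3, and the authors deposited expected counts from RSEM on GRCh38 (60675 genes); annotation release and strand setting: not given in the sources used here. Values that were not whole (10.5% of the cells) were rounded. Symbols came from a current name table (56558 genes) or GENCODE 29 (497). The 57 libraries of 19 groups entered 1 quasi-likelihood fit in edgeR 4.0.16 under R 4.3.3 with limma 3.58.1 (TMM and filterByExpr, 17256 genes); SE is the log2 fold change divided by the root of its F statistic. Soshiho-tang, with 1 library per dose, has values with exact Clopper-Pearson intervals. CPM scales the rounded count to the library total. DESeq2 1.42.0 was an alternative. The calculations were tested on simulated data. No 2 libraries of a group agreed within sampling noise (chi-square per degree of freedom 1.88 to 73.6). The genes and the 8 lists were chosen with earlier results of these data known. From each list up to 4 called genes of 1 CPM or more at 500 against 20 are named, beside a fixed panel. A wortmannin control was not analysed here. Items withheld for evaluation are not reported here.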

Additional observations from a re-analysis of the deposited data

Results flagged for a closer look

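Soshiho-tang had 1 library per dose and entered no comparison, and its levels of 4 of the 6 genes lay above the highest vehicle library at every dose. The share of all genes that did so was not computed, so nothing is read from this count. As a term in the fit of the other extracts, the step in library order was past the threshold for 43.7% of all genes. FGB was at 235.8 CPM at 500 (exact binomial 95% interval 229.6 to 242.2), 240.7 at 100 (234.5 to 247.1) and 244.0 at 20 (237.5 to 250.5), against 224.6 in the highest vehicle library. The library at 20 is the highest of all 60 for FGB. FGG was at 133.2 (128.5 to 138.0), 141.1 (136.4 to 146.0) and 144.7 CPM (139.8 to 149.8) in the same order of dose, against 132.7, and only the interval at 500 includes that vehicle value.

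LCN2 was at 1.69 (1.20 to 2.32), 0.979 (0.621 to 1.47) and 1.34 CPM (0.907 to 1.92), against 0.821. SERPINA3 was at 2.26 (1.69 to 2.96), 1.70 (1.22 to 2.32) and 2.47 CPM (1.86 to 3.21), against 1.59. The intervals cover counting error only, and with 1 library a dose there is no test. All Soshiho-tang libraries lie after the step in library order and all vehicle libraries before it. The 26 other libraries after the step ran from 204.1 to 239.2 CPM for FGB, 121.5 to 144.5 for FGG, 0.826 to 5.72 for LCN2 and 0.942 to 4.02 for SERPINA3, so only FGB at 100 and 20 and FGG at 20 lay outside them.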

How the results depend on the processing

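The number of values of the 6 genes past the threshold was 7 of 36 at 500 against vehicle and 5 of 36 at 500 against 20. It was 7 and 5 with RLE scaling, with DESeq2 and with the replicate number as a block, 7 and 6 with no filter, 9 and 7 with the library order as a term and 9 and 5 with only the compared groups in the fit. Leaving out 1 library at a time gave 6 to 7 and 5 to 7. At 100 against 20 it was 0 in every setting, 0 to 0 without 1 library. At 20 against vehicle it was 0, and 0 to 0 without 1 library, but 2 with no filter (SERPINA3 with Guibi-tang and Soyo-san), 1 with the library order as a term (FGB with Okbyeongpung-san, −0.16 ± 0.0529), 1 with DESeq2 and 1 with only the compared groups (FGG with Soyo-san in both, 0.16). The cause was not tested. No value past the threshold as reported changed sign in another setting, but FGB changed sign with the library order as a term at 500 against vehicle with Soyo-san (0.03 to −0.17) and at 20 against vehicle with Okbyeongpung-san (0.04 to −0.16), and both then passed. With the library order as a term FGB also passed at 500 against vehicle with Guibi-tang (−0.19 ± 0.0460), Soyo-san (−0.17 ± 0.0527) and Okbyeongpung-san (−0.21 ± 0.0528), and FGA with Guibi-tang (−0.16 ± 0.0388) and FGG with Soyo-san (−0.16) at 500 against 20, while SERPINA3 with Soyo-san no longer did. The number of all genes past the threshold, summed over the 24 comparisons, was 5749, and 5729 with RLE, 6165 with the block, 7093 with DESeq2, 9444 with no filter, 14365 with the library order as a term and 15581 with only the compared groups, and 84 of 144 fits without 1 library moved a count by over 1.5 times, 79 of them down. Same-numbered libraries were not paired: their deviations correlated at over 0.1 for all 3 numbers in only 3 of 24 comparisons, and the block changed no call of a member. LCN2 and SERPINA3, with 13 to 112 and 16 to 90 counts per library, limit what a change of dose can show.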

Other observations

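The pattern of each gene over the 19 group means was set beside that of all tested genes at 5 CPM or more, as Pearson r of log2 CPM. It is given as a description, since extract and library order are partly the same in these groups. The mean of the 3 chains was most like INSL4 (0.96), a placental insulin-like peptide gene, then TNFRSF10D (0.94), a decoy receptor for TRAIL, the imprinted RNA H19 (0.94), the clock gene PER2 (0.92), the integrin subunit ITGB1 (0.91) and SEMA3C (0.90). LCN2 was most like ASS1 (0.96), of arginine synthesis, MAP3K8 (0.96), a kinase of the NF-kB and ERK pathways, TNFAIP3 (0.96), which encodes the NF-kB inhibitor A20, OPTN (0.95), C3 (0.95) and the chemokine CXCL5 (0.94). Among the members, FGB and FGG were the most alike pair (0.91), then FGA and FGG (0.81) and FGA and FGB (0.66). LCN2 was unlike the chains (−0.27 with FGA, 0.16 with FGB, −0.07 with FGG) and weakly like SERPINA3 (0.48) and CP (0.38).

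At 20 against vehicle ANGPTL4, a secreted inhibitor of lipoprotein lipase, passed the threshold with Saposhnikoviae Radix in edgeR's quasi-likelihood test (0.39 log2) and in 13 of 13 other settings. Its calls with Menthae Herba (0.31), Guibi-tang (0.31) and Okbyeongpung-san (0.28) were lost in 4, 3 and 5 of 6 fits that left out 1 library. CEBPB, a C/EBP factor of acute phase promoters, passed with Menthae Herba (0.53), Saposhnikoviae Radix (0.46) and Saengmaek-san (0.45) and lost its call in 2, 4 and 4 of 6 such fits, with values of 0.40, 0.33 and 0.32 without vehicle replicate 1. NFKBIZ with Saposhnikoviae Radix (0.37) and Okbyeongpung-san (0.34) lost its call in 5 of 6 and 6 of 6. All these values are against the same 3 vehicle libraries.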
